A study of Homo sapiens with 7 samples.

Results

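RAB GTPases are small GTP-binding proteins that mark the membranes of the secretory and endocytic pathways. In the GTP-bound form a RAB recruits effectors such as tethers, motors and coiled-coil proteins, which move, dock and fuse vesicles. Exchange factors load GTP, GTPase-activating proteins end the active state, and GDP dissociation inhibitors carry the prenylated protein between membranes. Each RAB is known for its own compartment, and epithelial cells use several of them to keep apical and basolateral membranes apart.

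The members were the genes of the deposited RNA-seq table whose symbol is RAB followed by a number and at most 1 letter from A to F. The rule found 61 of 26175 genes, and it used no measured value. Transcription initiation and expression were measured in T47D/A1-2 cells, named T-47D in the sample labels and a derivative of the T-47D breast cancer cell line that overexpresses the rat glucocorticoid receptor and carries a stably integrated luciferase reporter driven by the MMTV promoter. Cells were grown with 10% fetal bovine serum and then kept for at least 24 hours in 5% serum stripped with charcoal and dextran. All samples came from this line under this condition. Of the 7 samples, 3 were RNA-seq libraries that had been merged into 1 value per gene. Transcription start sites (TSSs) had been called in 1 of 2 Start-seq libraries. MNase-seq (1 sample) and FAIRE-seq (1 sample) were not analysed here.

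Expression is given in FPKM, sequenced fragments scaled by transcript length and by the number of mapped fragments, so levels are per length and can be set side by side between genes. Start-seq sequences short capped nuclear RNAs, and the 5′ end of each read marks the base where RNA polymerase II started. The calls are of 3 kinds: the gene TSS, the upstream antisense TSS (uaTSS, searched from 1 to 1000 nt upstream on the opposite strand) and the downstream antisense TSS (daTSS, searched from 1 to 2000 nt downstream on the opposite strand). With 1 merged value per gene and calls from 1 library, no value below has an error between replicates, no test was run, and the depth behind a call is unknown. Intervals on shares are exact Clopper-Pearson 95% intervals, which cover counting error only. The luminal identity of the line was visible in the table, where 10 of 10 luminal breast markers had an FPKM of at least 10, from 44.1 for ESR1 to 1142 for KRT8. Of 4 basal or myoepithelial markers, KRT5 and KRT14 were listed at 0, TP63 was at 0.517 and ACTA2 at 3.20. Neither the 3 immune markers nor the endothelial marker PECAM1 reached an FPKM of 1, and of 3 fibroblast markers only COL1A1 did, at 8.82.

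RAB genes were expressed broadly. FPKM was at least 1 for 50 of the 61 (82.0%, interval 70.02% to 90.6%), beside 46.9% of all genes in the table and 60.2% of the 18891 genes with a RefSeq mRNA. The median RAB gene had an FPKM of 19.2, with quartiles at 2.21 and 51.6, whereas the median was 0.528 over all genes and 4.10 over genes with a RefSeq mRNA. On the log2 scale with 0.1 added, these medians were 4.27, -0.67 and 2.07. An FPKM of at least 10 was reached by 35 RAB genes (57.4%), beside 28.1% of all genes and 37.9% of those with a RefSeq mRNA. At least 50 was reached by 17 (27.9%), beside 8.37% and 11.4%, and at least 100 by 5 (8.20%), beside 3.51% and 4.80%. A further 8 lay above 0 and under 1, and RAB41, RAB42 and RAB44 were listed at 0. The summed FPKM of all members was 2486, of which the 5 highest genes held 46.6%.

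These 5 belonged to different compartments. RAB1B, which acts in transport from the endoplasmic reticulum (ER) to the Golgi, was the highest at 360. RAB5C, an early endosome RAB, followed at 272. The late endosome RAB7A stood at 208, next to RAB25 at 205. RAB25 is an epithelial member of the RAB11 subfamily that acts in recycling at the apical pole, and its FPKM was above that of 98.9% of all genes. RAB13, known from tight junctions and traffic to the plasma membrane, was the fifth at 114.

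**Figure D1:**
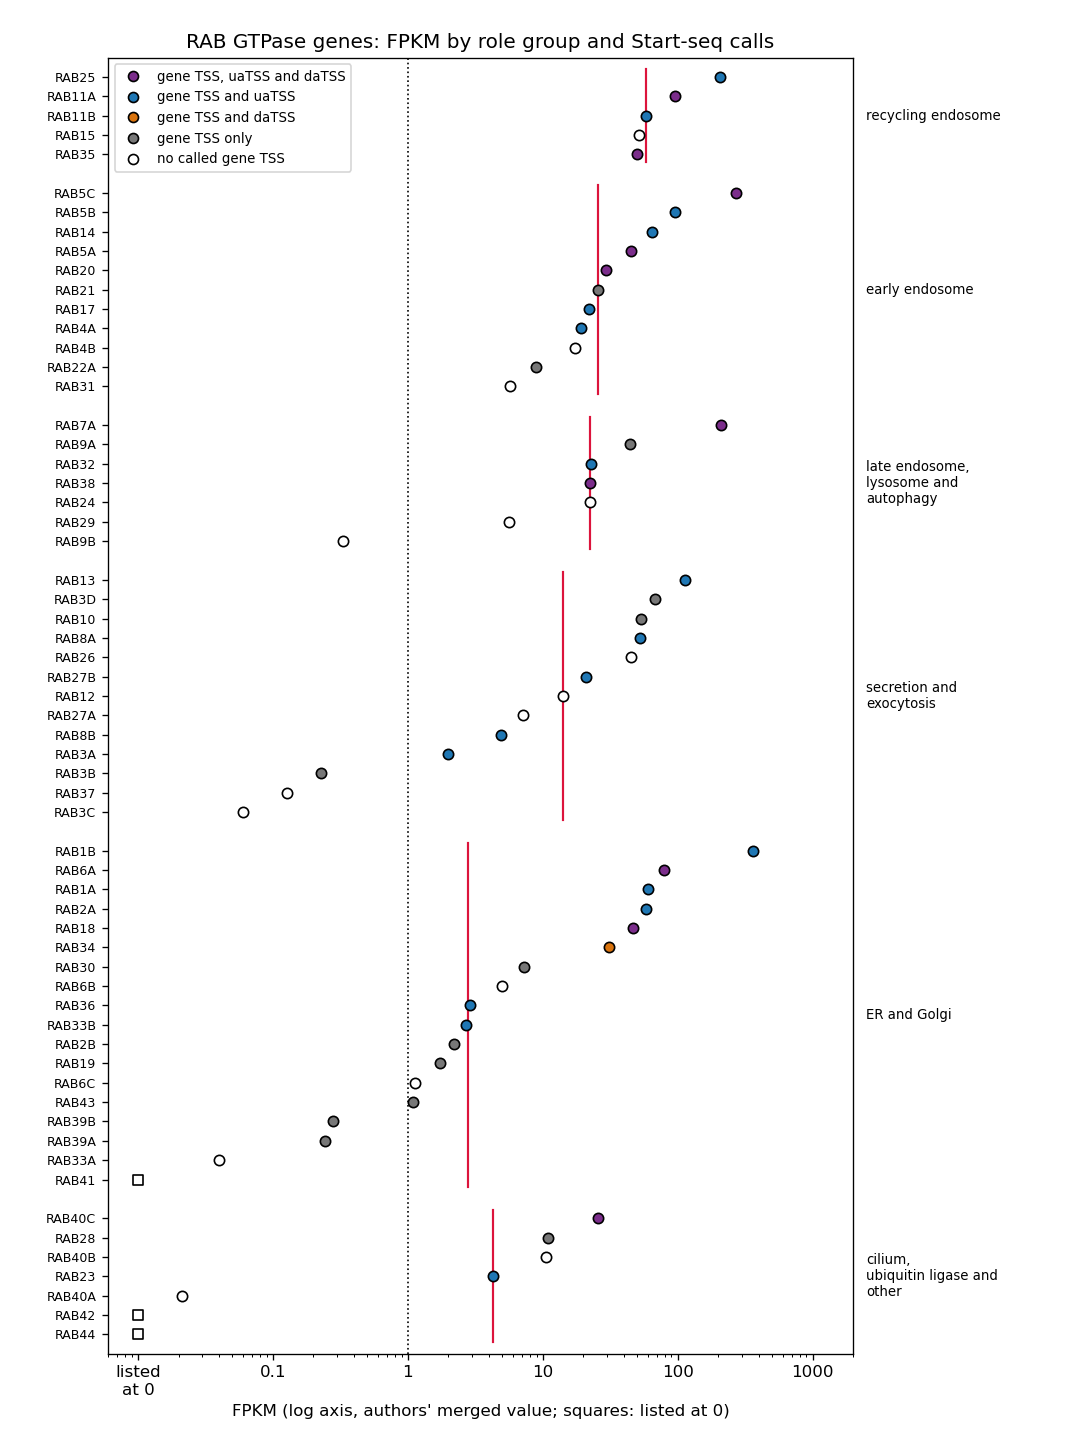
Each point is 1 of the 61 RAB genes, placed by its FPKM on a log axis, with genes listed at 0 drawn as squares at the left edge; rows are grouped by role, the red line is the median of a group, the dotted line is an FPKM of 1, and the fill gives the Start-seq calls. The 5 genes placed in the recycling endosome group lie between 50.3 and 205, while the ER and Golgi group runs from 0 to 360. Role groups were assigned by hand with values known.

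Sequence around the calls shows what the antisense initiation looks like at these genes. A gene TSS, a uaTSS and a daTSS were called together at 10 RAB genes, and the 6 of them with the highest FPKM are printed here, 30 bases per call in the direction of the RNA that starts there, read from GRCh37 (hg19), without the uaTSS of RAB5C. Capitals mark the base before the start and the base called as the start.
RAB5C gene TSS, chr17:40306970-40306999, minus strand: aggccggagcctggGAcaccgccggcgggg
RAB5C daTSS, chr17:40306252-40306281, plus strand: cagaaagagagagaCActcaaagaacaaca
RAB7A gene TSS, chr3:128445050-128445079, plus strand: ggcggcagcggcggAGttggcggcttggag
RAB7A uaTSS, chr3:128444898-128444927, minus strand: accttgcgtcacgtTCcggctgcctcggga
RAB7A daTSS, chr3:128445668-128445697, minus strand: cgtcagggaactccCActaacagggtcagg
RAB11A gene TSS, chr15:66161781-66161810, plus strand: tgccggaaatggcgCAgcggcagggagggg
RAB11A uaTSS, chr15:66161717-66161746, minus strand: cggcgccccgccccTGagcccaacaagggc
RAB11A daTSS, chr15:66163351-66163380, minus strand: ttcttcctcagtggTAatgatctttgttcg
RAB6A gene TSS, chr11:73472105-73472134, minus strand: tccagaggctcgcgCActcagcaggttggg
RAB6A uaTSS, chr11:73472438-73472467, plus strand: agagcgcgcgcagcCCtcgagctgtggaaa
RAB6A daTSS, chr11:73471348-73471377, plus strand: gagggagggcagatCGaccggagatggccg
RAB35 gene TSS, chr12:120554557-120554586, minus strand: ggaggtgtttctgtCAgttccggctgtttg
RAB35 uaTSS, chr12:120554715-120554744, plus strand: gcgcccgggtcgcgCAcgcgccctgacgga
RAB35 daTSS, chr12:120554119-120554148, plus strand: cgtctctccaactcCAgagatcgcgcgact
RAB18 gene TSS, chr10:27793148-27793177, plus strand: tggggagtccagggCTtcggcagcctgaac
RAB18 uaTSS, chr10:27793112-27793141, minus strand: ccttgaggtagctcCAcggctgcgcgaccc
RAB18 daTSS, chr10:27793439-27793468, minus strand: ccgccgctgcagttTAcagttcccgtcgcg

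A pyrimidine followed by a purine, the pair typical of an initiator, stands at the start in 3 of the 6 gene TSSs, 3 of the 5 uaTSSs and 6 of the 6 daTSSs printed, beside 66.1%, 64.7% and 66.9% of all calls of each kind. The uaTSS of RAB5C lies in repeated sequence. The 30 bases around it occur at 135 places in the genome, whereas each of the 17 windows printed occurs at 1 place. The authors placed calls with uniquely mapped fragments, whose sequences are not in the files used here, so this call is given with that limit.

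The 5 genes placed in the recycling endosome group had an FPKM of at least 50, with a median of 58.5, and they held 18.5% of the summed FPKM of the family. The role groups were assigned by hand with values known, and RAB4A (19.2) and RAB4B (17.5), which also act in recycling, were placed with the early endosome. RAB17 (22.0) and RAB22A (8.99) were placed there too, and RAB12 (14.2) was placed with secretion and exocytosis. An FPKM of at least 50 throughout the recycling group therefore depends on this placement, and other placements were not tested. After RAB25, RAB11A (95.2) and RAB11B (58.5) return cargo from the recycling endosome to the plasma membrane. RAB15, a regulator of endocytic recycling, was at 51.6. RAB35, which drives fast recycling, was at 50.3 and was the lowest of this group.

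All 11 early endosome RABs had an FPKM of at least 1 and 9 had at least 10, with a median of 25.7. The RAB5 genes, which control homotypic fusion of early endosomes, were 3 of the 4 highest, at 272 for RAB5C, 96.1 for RAB5B and 44.9 for RAB5A. RAB14, which links Golgi and endosomes, stood between them at 65.0. RAB20 was at 29.4, RAB21, known for integrin endocytosis, at 25.7, and the epithelial RAB17 at 22.0. The fast recycling pair RAB4A and RAB4B was at 19.2 and 17.5, and RAB22A (8.99) and RAB31 (5.75) were the lowest.

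Among the 7 late endosome, lysosome and autophagy RABs, 6 had an FPKM of at least 1, and the median was 22.5. RAB7A was 208, and RAB9A, which acts in retrieval from late endosomes to the trans-Golgi, was 44.2. RAB32 (22.7) and RAB38 (22.5), a pair known from melanosomes and other lysosome-related organelles, and RAB24 (22.4), linked to autophagy, had nearly the same level. RAB29 was at 5.60 and RAB9B at 0.331.

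Of the 13 secretion and exocytosis RABs, 10 had an FPKM of at least 1, and the median was 14.2. RAB13 (114) was followed by RAB3D (68.5), a RAB of secretory granules. RAB10 (53.4) and RAB8A (52.2), which carry cargo to the basolateral membrane and the cilium, were next, and RAB26, linked to secretory granules, was at 45.1. RAB27B, which docks secretory vesicles, was at 20.9 and its paralog RAB27A at 7.14. Apart from RAB3D, the RAB3 genes were low, with RAB3A, the synaptic vesicle RAB, at 1.99, RAB3B at 0.228 and RAB3C at 0.0598. RAB37 was at 0.126.

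The 18 ER and Golgi RABs covered the widest range. RAB1B was 360, RAB6A, which acts in retrograde traffic through the Golgi, was 78.9, RAB1A was 60.6 and RAB2A, a RAB of the ER to Golgi interface, was 57.9. RAB18, known from lipid droplets and the ER, was 46.7, and RAB34 was 31.3. The other 12 members lay under 10, from RAB30 at 7.22 down to RAB41 at 0, and the group median was 2.80. RAB33B, which binds the autophagy protein ATG16L1, was 2.71, whereas RAB33A was 0.0402. RAB36 (2.89), RAB19 (1.73) and RAB43 (1.10) were also low. The group held 26.5% of the summed FPKM, most of it in RAB1B.

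The remaining 7 RABs, with roles in cilia, ubiquitin ligases or less known functions, held 2.06% of the summed FPKM. RAB40C and RAB40B carry a SOCS box that links them to ubiquitin ligases, and they stood at 25.6 and 10.5. RAB28, a RAB of the cilium, was 10.9, and RAB23, a brake on Hedgehog signalling, was 4.28. RAB40A was 0.0211.

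Within paralog families, formed by the number in the symbol, 1 gene often held most of the summed FPKM. Of 13 families with at least 2 genes in the table, 10 had at least 2 genes with an FPKM of at least 1. In 9 of the 13 the top gene held over 70% of the summed FPKM. The top gene of a pair holds the larger part by definition, and other gene families were not examined. RAB1B held 85.6% of RAB1 and was 5.93 times RAB1A. RAB2A held 96.3% of RAB2, with RAB2B at 2.21. RAB3D held 96.8% of RAB3, and RAB9A held 99.3% of RAB9. RAB8A held 91.4% of RAB8, with RAB8B at 4.88. RAB6A held 92.8% of RAB6, with RAB6B at 4.97 and RAB6C at 1.13. RAB6C is a near copy of RAB6A, so the split of reads between them is uncertain, and the same holds in part for other close paralogs.

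The families with a flatter split were RAB5, RAB11, RAB4 and RAB39. RAB5C held 65.8%, RAB5B 23.3% and RAB5A 10.9% of RAB5. RAB11A held 61.9% of RAB11 and was 1.63 times RAB11B. RAB25 (205), of the RAB11 subfamily, has its own number and was not counted in RAB11. RAB4A held 52.4% of RAB4 and was 1.10 times RAB4B. RAB39B and RAB39A were both under 1, at 0.280 and 0.244. RAB27B held 74.5% of RAB27, and RAB40C held 70.8% of RAB40.

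**Figure D2:**
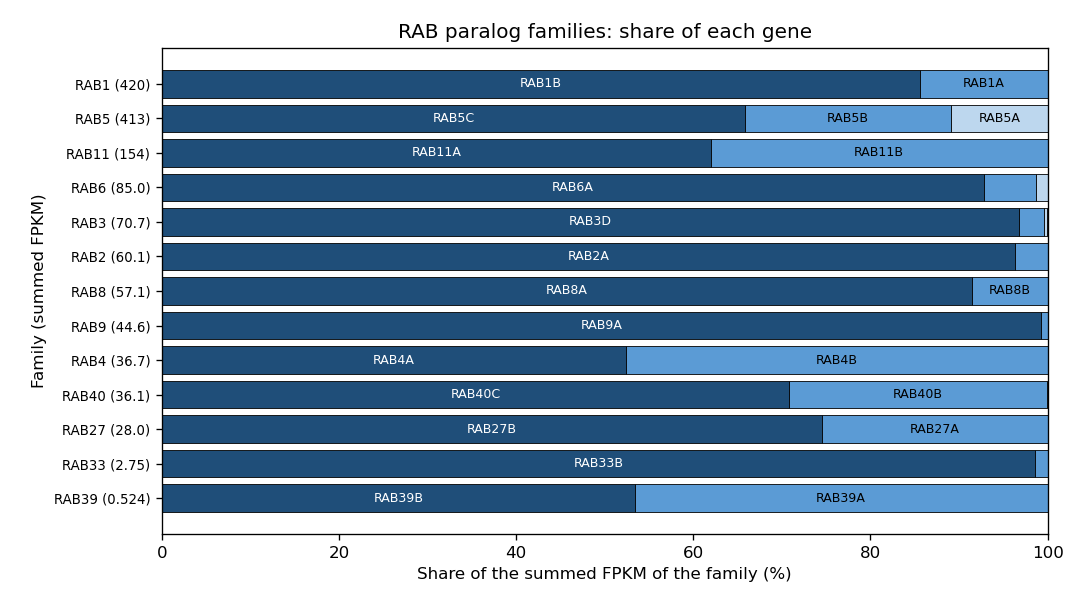
Each bar is a RAB paralog family, formed by the number in the symbol, with its summed FPKM in parentheses. Bars are divided by the share of this sum that each gene holds, in percent. A single gene holds over 70% in 9 of the 13 families, and RAB4, RAB5, RAB11 and RAB39 are split more evenly.

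A gene TSS was called at 42 of the 61 RAB genes (68.9%, interval 55.7% to 80.1%), beside 37.4% of all genes and 51.5% of genes with a RefSeq mRNA. Each of the 42 had 1 call. Among members with an FPKM of at least 1 the share was 39 of 50 (78.0%, interval 64.0% to 88.5%), beside 80.4% of genes with a RefSeq mRNA at that level. With an FPKM of at least 10 it was 29 of 35 (82.9%) beside 87.1%. At both thresholds the share of the other genes lay within the interval of the RAB genes (66.4% to 93.4% at an FPKM of at least 10).

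The called positions lay close to annotated starts. The nearest annotated transcript start was within 50 nt at 33 of 42 RAB gene TSSs (78.6%), beside 75.0% of all gene TSSs. The exceptions over 200 nt away were RAB10 (787 nt), RAB21 (403 nt), RAB28 (274 nt), RAB40C (251 nt) and RAB32 (231 nt). For RAB10, RAB21 and RAB40C the call lay upstream of the annotated start, and for RAB28 and RAB32 downstream. Other annotations give other distances. The RAB33B call at 140374414 was 28 nt from a start, but the locus deposited with its FPKM begins at 140374960.

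An FPKM of at least 1 without a called gene TSS was found for 11 RAB genes. RAB15 (51.6) and RAB26 (45.1) were the highest of them. RAB24 (22.4), RAB4B (17.5), RAB12 (14.2) and RAB40B (10.5) followed, and RAB27A (7.14), RAB31 (5.75), RAB29 (5.60), RAB6B (4.97) and RAB6C (1.13) were lower. Loci of 3 of these 11 held gene TSSs of other genes within 1000 nt, beside 6 of all 61 RAB loci (9.84%). RAB1A, RAB43 and RAB5B held such a TSS and also had their own call. The window of RAB15 held the starts called for MAX, CHURC1 and FNTB. That of RAB4B held the start of EGLN2, which lies inside the span given for RAB4B. The starts of MAX, CHURC1 and FNTB likewise lie inside the span given for RAB15. These spans were deposited with the FPKM values, and whether they match the annotated genes was not checked. For RAB24, on the minus strand of chromosome 5, the start of PRELID1 was called on the plus strand at 176730817, 72 nt beyond the end of the RAB24 locus at 176730745. The calling by the authors drew boundaries between neighbouring genes at midpoints, and whether this set the missing calls was not tested.

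In the other direction, RAB39B (0.280), RAB39A (0.244) and RAB3B (0.228) had a called gene TSS with an FPKM under 1. That made 3 of 11 members under 1 (27.3%, interval 6.02% to 61.0%), beside 7.87% of genes with a RefSeq mRNA under 1. None of these 3 had a uaTSS or a daTSS. Among all gene TSSs of genes with an FPKM under 10, 45.1% had a uaTSS and 25.8% a daTSS.

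RAB genes had a uaTSS at 28 of 42 gene TSSs (66.7%, interval 50.5% to 80.4%), beside 53.1% of all 10391 gene TSSs. A daTSS was called at 11 (26.2%, interval 13.9% to 42.0%), beside 28.4%. Both were called at 10 (23.8%) beside 17.5%, a uaTSS alone at 18 (42.9%) beside 35.6%, and neither at 13 (31.0%) beside 35.9%. RAB34 was the 1 member with a daTSS and no uaTSS (2.38%), beside 11.0%. All 6 of these background shares lay within the intervals of the RAB shares. No RAB gene TSS had a called gene TSS of another gene on the opposite strand within 1000 nt upstream (0 of 42, upper bound 8.41%). This divergent arrangement was found at 11.5% of all gene TSSs. Annotated antisense starts without a called gene TSS are not counted in it.

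Antisense calls were found at a larger share of the higher expressed RAB genes, although the intervals of both levels overlapped. At an FPKM of at least 10, 23 of 29 RAB gene TSSs had a uaTSS (79.3%, interval 60.3% to 92.0%), beside 57.8% of all gene TSSs at that level. Under 10 it was called at 5 of 13 (38.5%, interval 13.9% to 68.4%), beside 45.1%. All 11 daTSSs lay at genes of at least 10, which made 11 of 29 (37.9%, interval 20.7% to 57.7%) beside 30%. Under 10 there were 0 of 13, with an upper bound of 24.7%, beside 25.8%. The split at 10 was chosen with these values known. Read depth per start was not available, and its part in this order was not tested. The authors also filtered daTSS calls, in part by reads relative to the gene TSS, and the part of this filter was not tested either.

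By class, the median FPKM of RAB genes was 48.5 with both antisense calls, 37.4 with a uaTSS alone, 7.22 with neither and 4.97 with no gene TSS. Over all gene TSSs the medians were 21.4 with both, 18.7 with a uaTSS alone and 13.95 with neither. The RAB genes with a daTSS ranged from 22.5 for RAB38 to 272 for RAB5C, while those with a gene TSS and no daTSS ranged from 0.228 for RAB3B to 360 for RAB1B. Expression therefore overlapped between the classes, and 6 RAB genes with a gene TSS and an FPKM of at least 10 had no uaTSS, among them RAB3D (68.5), RAB10 (53.4) and RAB9A (44.2).

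**Figure D3:**
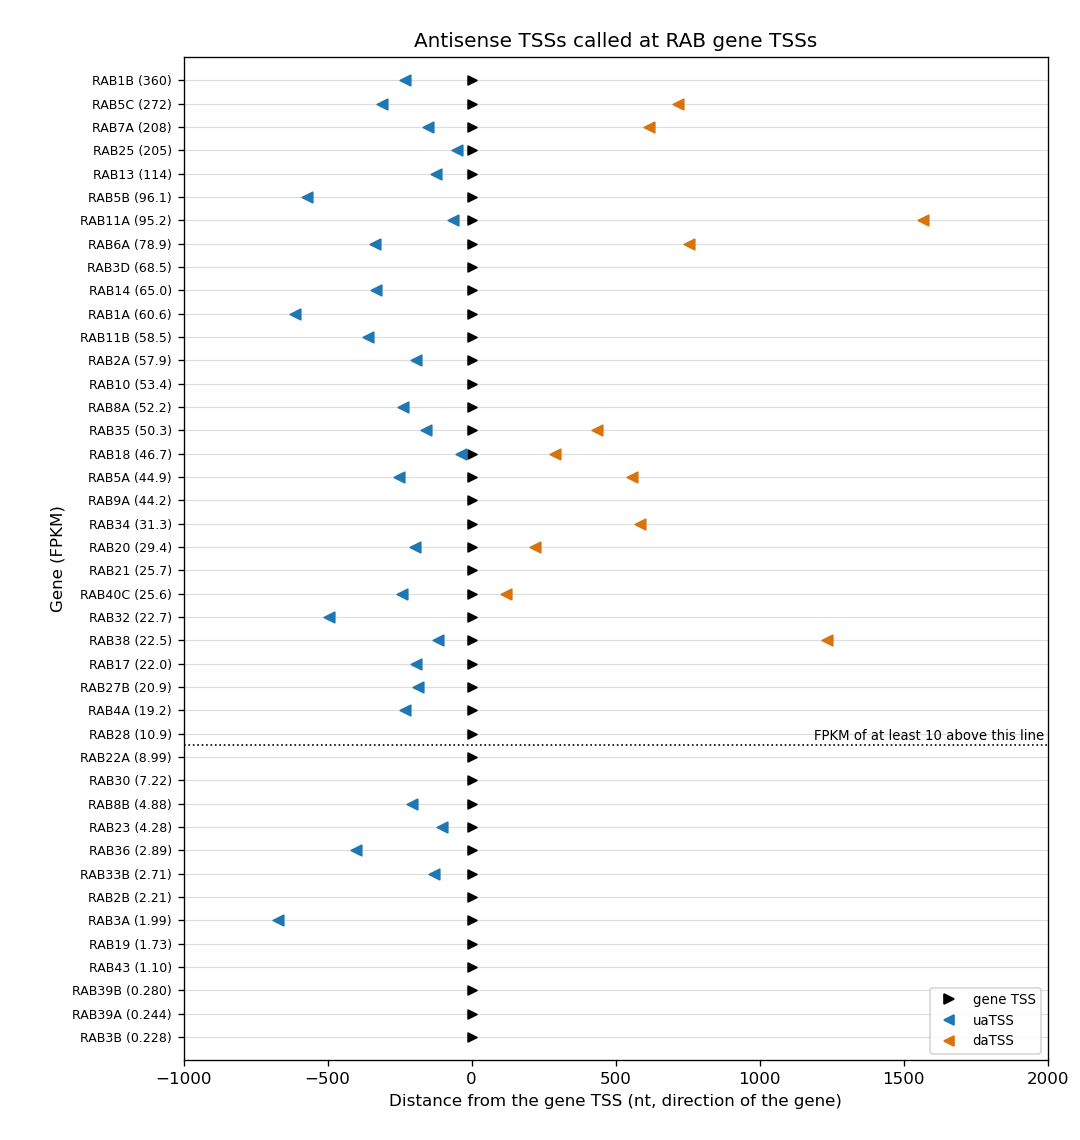
Each row is 1 of the 42 RAB gene TSSs, ordered by FPKM from top to bottom, with the gene TSS at 0 and called antisense TSSs at their distance in nt along the direction of the gene (blue, uaTSS; orange, daTSS). All 11 daTSSs lie above the dotted line that marks an FPKM of 10, and uaTSSs reach from 37 to 671 nt upstream.

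RAB uaTSSs lay at a median of 218.5 nt upstream of the gene TSS (interval of the median 159 to 312 nt, quartiles 147 and 333 nt), and the median over all 5519 uaTSSs was 200 nt. The shortest distances were 37 nt at RAB18, 51 nt at RAB25 and 65 nt at RAB11A. At the other end were 573 nt at RAB5B, 612 nt at RAB1A and 671 nt at RAB3A. Some paralogs differed in this distance and others did not. RAB1B had 230 nt where RAB1A had 612 nt, and RAB11B had 361 nt where RAB11A had 65 nt. The RAB5 genes had 252 nt (RAB5A), 312 nt (RAB5C, the call in repeated sequence) and 573 nt (RAB5B). RAB8A and RAB8B were close, at 238 nt and 207 nt. Over all uaTSSs the quartiles were 127 and 329.5 nt, and whether paralogs differ less than unrelated genes was not tested.

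The short spacing at RAB25 and RAB11A can be read in full. The stretch from 10 bases before the uaTSS to 10 bases after the gene TSS is printed on the strand of the gene, and capitals mark the uaTSS base (as its complement) and the gene TSS base.
RAB25, chr1:156030887-156030957, plus strand: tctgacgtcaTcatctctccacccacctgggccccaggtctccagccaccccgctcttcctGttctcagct
RAB11A, chr15:66161721-66161805, plus strand: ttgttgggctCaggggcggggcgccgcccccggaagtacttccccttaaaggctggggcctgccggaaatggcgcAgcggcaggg

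These promoters differ in composition. The RAB25 stretch holds no GC box, and its CpG observed to expected ratio within 100 nt of the gene TSS was 0.260, the lowest of the 42. It holds the palindrome TGACGTCA directly beside the uaTSS base, a word searched for only after this stretch had been read. That word lay within 100 nt upstream of no other RAB gene TSS and of 1.80% of all gene TSSs. The RAB11A stretch holds the GC box on both strands and the ETS word CGGAAG between its starts.

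An annotated antisense transcript started within 100 nt of the uaTSS at 6 of 28 RAB genes (21.4%, interval 8.30% to 41.0%), close to the 20.5% of all uaTSSs. The distances were 0 nt to LINC01301 at RAB2A, 2 nt to RAB4A-AS1 at RAB4A, 19 nt to RAB35-AS1 at RAB35, 74 nt to RAB11B-AS1 at RAB11B and 74 nt to RAB17-DT at RAB17. At RAB3A an unnamed transcript (ENSG00000268650) started 17 nt away. At RAB36, RAB5A and RAB5B the nearest antisense start was that of a protein-coding gene. These were RSPH14 (118 nt away), EFHB (120 nt) and PMEL (207 nt).

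RAB daTSSs lay at a median of 584 nt downstream of the gene TSS (interval of the median 221 to 1233 nt), and the median over all 2956 daTSSs was 507 nt. In order of distance they were 119 nt at RAB40C, 221 nt at RAB20, 290 nt at RAB18, 437 nt at RAB35 and 557 nt at RAB5A. RAB34 had 584 nt, RAB7A 617 nt, RAB5C 717 nt and RAB6A 756 nt. RAB38 (1233 nt) and RAB11A (1569 nt) were beyond 1000 nt. In the transcript whose start lies nearest the call, 8 daTSSs lay in intron 1 and 2, those of RAB34 and RAB20, in exon 1. The daTSS of RAB5A lay in intron 1 and also in an exon of another transcript. The daTSS of RAB40C lay before the nearest annotated start, since its gene TSS was called 251 nt upstream of that start.

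By role, daTSSs were found at 2 of 4 recycling gene TSSs, 3 of 9 early endosome, 2 of 4 late endosome, 3 of 14 ER and Golgi and 0 of 8 secretory gene TSSs. In the same order, uaTSSs were found at 4, 7, 3, 7 and 5. The remaining RABs had 3 gene TSSs, with 2 uaTSSs and 1 daTSS. The groups hold too few starts to compare, and role and expression cannot be told apart in them.

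The base pair at the start was looked at next. A pyrimidine before the start and a purine at the start were found at 29 of 42 RAB gene TSSs (69.0%, interval 52.9% to 82.4%), beside 66.1% of all gene TSSs. At a position 50 nt downstream, which serves as a background, the pair was found at 13 of 42 (31.0%) beside 22.9%. The pair was found at 17 of 28 RAB uaTSSs (60.7%) beside 64.7% and at 10 of 11 RAB daTSSs (90.9%, interval 58.7% to 99.8%) beside 66.9%. Among the 5 RAB genes of the highest FPKM, RAB25 had the pair and RAB1B, RAB5C, RAB7A and RAB13 did not. By a split at an FPKM of 50, chosen after these values were seen, it was present at 8 of 16 RAB gene TSSs above and 21 of 26 below (80.8%), beside 64.3% and 66.5% of all gene TSSs.

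RAB promoters were rich in GC. The GC content within 100 nt on each side of the gene TSS was 69.0% ± 7.11 (SD over 42 genes, range 50% to 82%), and over all gene TSSs it was 67.5% ± 8.79. The CpG observed to expected ratio was 0.788 ± 0.219, beside 0.845 ± 0.227. Both means differed by less than 1 SD, which is the spread between promoters and not the error of a mean.

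Motif words were searched for on both strands in the 100 nt upstream of each gene TSS. The GC box GGGCGG was found at 27 of 42 RAB gene TSSs (64.3%, interval 48.0% to 78.4%), beside 50.2% of all gene TSSs. The CCAAT box CCAAT was found at 4 (9.52%) beside 18.7%, the ETS word CGGAAG at 7 (16.7%) beside 18.4%, and the NRF1 word GCATGCGC at 1, RAB23 (2.38%), beside 2.88%. TATAA and the E-box CACGTG were found at none (upper bound 8.41%), beside 3.77% and 4.47%. None of these 6 words was found at 12 RAB gene TSSs (28.6%) beside 27.9%. RAB1B and RAB5C, the highest RAB genes, show how GC boxes were placed, with matches in capitals.
RAB1B, 54 to 25 nt upstream, chr11:66036058-66036087, plus strand: GGGCGGggcctctgGGGCGGagcggccacc
RAB5C, 68 to 39 nt upstream, chr17:40307023-40307052, minus strand: GGGCGGGGCGGaggtggagatccggatccg

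The GC boxes at RAB1B are separate, and those at RAB5C overlap by 1 base. A match describes these letters and not the binding of a factor.

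Genes that act on RABs were counted against the same background, an FPKM of at least 1 in 46.9% of all genes and 60.2% of genes with a RefSeq mRNA. All 8 genes of prenylation and membrane cycling had an FPKM of at least 1, with a median of 21.8. The GDP dissociation inhibitor GDI2 (243) was the highest, and RABGGTB, a subunit of the transferase that adds the lipid, was at 28.8. Of 33 exchange factors 29 had at least 1, with a median of 7.27, led by HPS1 (37.6), part of the exchange factor of RAB32 and RAB38, DENND2D (26.3) and MON1B (24.5). Of 35 GTPase-activating proteins 33 had at least 1, with a median of 12.5, led by TBC1D10B (43.8), SGSM3 (41.5) and TBC1D9B (39.8). Of 32 effectors 29 had at least 1, with a median of 8.19. RAB11FIP1 (75.3), which binds RAB11 and RAB25, RABEP1 (57.7), an effector of RAB5 and RAB4, and MLPH (57.0), which binds RAB27 and a myosin, were the highest of them.

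Gene TSSs were called at 5 of the 8 prenylation and cycling genes, 23 of 33 exchange factors, 26 of 35 GTPase-activating proteins and 23 of 32 effectors, beside 51.5% of genes with a RefSeq mRNA and 80.4% of those with an FPKM of at least 1. Of the genes with a gene TSS, 3, 16, 20 and 15 had a uaTSS and 1, 7, 9 and 11 a daTSS, beside 53.1% and 28.4% of all gene TSSs.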

How the data were processed

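T47D/A1-2 cells were assayed under 1 growth condition. The FPKM values were deposited by the authors as 1 column, estimated with Cufflinks (2.2.1 per the submitters' processing notes) after merging 3 RNA-seq replicates. Merging hides the replicate spread, and reads shared by close paralogs are divided by the estimator. The TSS calls were deposited as hg19 positions from Start-seq replicate 1. Their score, as deposited, is 0 throughout, so read depth is unknown. The authors called gene TSSs within windows around RefSeq mRNA starts and required 5 reads, which can miss weak starts. They dropped a daTSS if nearby reads on the strand of the gene reached a set share of those at the gene TSS. A daTSS near an annotated start on its own strand was dropped as well. Single-sample columns numbered 0 in this table. In place of a symbol, 28 rows hold a date.

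Calls were joined by their shared identifier. A gene TSS within 1000 nt of a locus was assigned to the gene whose annotated transcript (GENCODE 44 on GRCh37, the same chromosomes as hg19) starts nearest on the same strand, within 1000 nt. Of 10391 gene TSSs, 10228 were joined to the table. Python 3.11.15, pandas 2.3.3, numpy 2.4.6, scipy 1.17.1, pysam 0.24.0 and matplotlib 3.10.9 were used. The pseudocount on the log2 scale was 0.1. Assignment and intervals were tested on simulated data.

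The members, role groups and lists were chosen with earlier results of these data known. Named were the 3 highest genes of each role group and list, paralogs in families with at least 2 genes at an FPKM of 1, genes where FPKM and call differ, genes with a daTSS, and the extreme distances. Other members are named to complete their group, after their values were seen. A gene of the lists and 2 sequence windows that these rules select are not reported here.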

Additional observations from a re-analysis of the deposited data

How the results depend on the processing

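The 9 results of the analysis were recomputed under 26 alternatives. Of these, 6 could not move a value, because each gene had 1 gene TSS, none had a divergent gene TSS, or only a denominator changed, and the median uaTSS distance had no other alternative. Under the other 20 the value stayed within its 95% interval, 1 SD or 1.5 times the main count. These limits are wide, and staying within them does not show that a value was unaffected. Mean GC content, for example, went from 69.0% to 63.1% with 500 nt on each side and stayed within 1 SD. The number of RAB genes above the minimum was 55 at an FPKM of 0.1, 50 at 0.5 and 40 at 5. The number with a gene TSS ranged from 38 with a window of 200 nt around the locus to 45 when any call in the locus window was counted, the starts of neighbours included. The share with a uaTSS ranged from 65.9% to 71.8%, and the lower value, added after the data were seen, leaves out RAB5C. The share with a daTSS ranged from 21.4%, with daTSSs up to 1000 nt, to 28.2% among genes with an FPKM of at least 1. No paired analysis was possible because the deposited values are 1 merged column and the calls come from 1 library, and leaving out a replicate was not possible for the same reason. The depth behind the calls is unknown, and its part in the missing calls was not tested.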
